A study of Mus musculus with 8 samples.

Results

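The genes described here are 8 transcripts by which neutrophils are recognised: S100a8, S100a9, Ngp, Camp, Cxcr2, Csf3r, Retnlg and Il1r2. Every probe set of the deposited table whose single gene symbol is one of these names was taken. Of the 8 genes, 7 had such a probe set, out of 18191 genes with one in the whole table, and each of the 7 had 1 probe set. Retnlg was not listed in the annotation used and is not analysed here. All 7 passed the filter on dim signals, which kept 13854 genes whose signal reached the median of the array in 2 or more of the 8 hybridizations. Cxcr2 passed only through both of the day 1 nanotube arrays, the group in which it was highest.

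The mice were male, of the outbred ICR stock and aged 5 to 6 weeks, and RNA was taken from lobe 1 of the lung's right side. The 4 groups were lungs taken on day 1 or day 7 after a dose of single-walled carbon nanotubes (SWCNT) placed in the trachea, 0.5 mg suspended in a 50 µl volume of 0.1% Pluronic F-68, and lungs taken on day 1 or day 7 after Pluronic F-68 without tubes (PF68, the solvent control). Each group had 2 single-colour Affymetrix arrays. The labels call these biological replicates without naming the animals, so each p-value rests on array-to-array spread alone, and that may be technical. All mice were anesthetized with pentobarbital and had the trachea exposed through the neck skin, and the 4 groups hold no untreated mice. The question was how SWCNT change gene expression in the lung beyond what the solvent does.

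Neutrophils mature in bone marrow and fill their granules stage by stage. Ngp (neutrophilic granule protein) and Camp (the cathelicidin precursor) are granule genes transcribed mainly in precursors and switched down before the cell enters blood. Cxcr2, the receptor for neutrophil-attracting CXC chemokines, Csf3r, the receptor for G-CSF, and Il1r2, a decoy receptor that binds interleukin-1 without signalling, are transcribed in mature cells. S100a8 and S100a9 encode the partners of calprotectin, the most abundant cytosolic protein complex of neutrophils, and monocytes express them too. In whole lung RNA, fewer cells of a type and less RNA per cell cannot be told apart.

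S100a8 and S100a9 are close neighbours on chromosome 3 and were both called lower in SWCNT on day 7, while of Ngp and Camp, both on chromosome 9, only Ngp was called on either day, so the 140 bases before the start of each are shown, from RefSeq (GRCm38.p6). They lie at chr3:90668931-90669070 (S100a8, plus strand), chr3:90695722-90695861 (S100a9, minus strand), chr9:110419668-110419807 (Ngp, plus strand) and chr9:109849457-109849596 (Camp, minus strand). Each is read 5′ to 3′ towards the gene. Capitals mark matches, on either strand, to the letters TTNNGNAA, a core that C/EBP factors of the granulocyte lineage can bind, and to TATAAA, the TATA box core.
S100a8: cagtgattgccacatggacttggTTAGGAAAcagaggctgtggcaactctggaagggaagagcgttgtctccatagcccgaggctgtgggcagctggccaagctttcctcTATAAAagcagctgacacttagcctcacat
S100a9: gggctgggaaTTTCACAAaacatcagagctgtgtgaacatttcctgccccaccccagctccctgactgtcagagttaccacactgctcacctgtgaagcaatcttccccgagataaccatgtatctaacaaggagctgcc
Ngp: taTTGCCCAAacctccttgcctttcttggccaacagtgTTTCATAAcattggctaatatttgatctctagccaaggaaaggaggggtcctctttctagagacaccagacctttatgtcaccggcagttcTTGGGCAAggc
Camp: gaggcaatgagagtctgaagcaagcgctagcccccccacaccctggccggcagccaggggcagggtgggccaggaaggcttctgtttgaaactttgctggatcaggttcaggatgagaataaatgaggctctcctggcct

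The genes themselves span chr3:90669071-90670034 (S100a8), chr3:90692630-90695721 (S100a9), chr9:110419808-110423012 (Ngp) and chr9:109847377-109849456 (Camp) in that build, and Cxcr2 spans chr1:74153994-74161246, Il1r2 chr1:40084692-40125230 and Csf3r chr4:126023441-126044975. Windows of 250 bases were taken before a start of each gene. For Csf3r (chr4:126024659) and Il1r2 (chr1:40086093) that start, and so the window, lies inside the span given above. For the other genes it is the edge of the span. In these windows the letters TTNNGNAA occurred 3 times for Ngp, 2 times for S100a9 and 1 time for S100a8. The windows of Camp, Cxcr2, Csf3r and Il1r2 held no match to these letters. They occur in 36.8% of the 32851 promoter windows of the same length, so 3 of 7 genes is close to the general share. TATAAA was present in 1 of the 7 windows, that of S100a8, and in 12.4% of all windows. GAGGAA, a core for the myeloid factor PU.1, matched in 3 of 7 windows (S100a8, Cxcr2 and Csf3r) and in 23.3% of all. It is not capitalised above, shares no bases with the other matches, and was searched on both strands too.

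Signals are on a scale read as log2, with a median of -0.63 and a highest value of 8.31 on every array. The lung epithelial genes Ager and Cxcl15 lay between 7.83 and 7.92 and between 6.62 and 7.41 on all 8 arrays, near the top of the scale. RNA and hybridization measures differed between the groups. For beta-actin, the 3′ signal less the 5′ signal, a gap that widens as RNA is shortened, averaged 1.34 in SWCNT day 1, 2.02 in PF68 day 1, 2.97 in SWCNT day 7 and 3.27 in PF68 day 7. Bacterial hybridization spikes (18 probe sets) differed by 0.22 between SWCNT and PF68 on day 1 and by -0.53 on day 7. Scaling the arrays to these spikes therefore shifts all genes alike: the median difference of all genes becomes -0.24 on day 1 and 0.55 on day 7, and values given below with spike scaling carry that shift. Of the genes called, 43% were higher in SWCNT on day 1 and 64.2% on day 7, against 13.7% and 98.6% with spike scaling. Of the genes called between the days, 58.9% were higher on day 7 in SWCNT and 50% in PF68, against 78% and 2.9% with spike scaling. Skeletal muscle markers summed to 93.8 to 98.9 units of linear signal on the SWCNT day 1 arrays and to 5.59 to 6.89 on the other 6. Squamous epithelium markers summed to 29.6 to 32.4 on those arrays and 1.85 to 3.70 on the others. All differences below are SWCNT minus PF68, or day 7 minus day 1, as log2 difference ± standard error with 2 arrays per group. Calls use limma with Benjamini-Hochberg adjustment over all 13854 genes, at an adjusted p of 0.05.

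**Figure D1:**
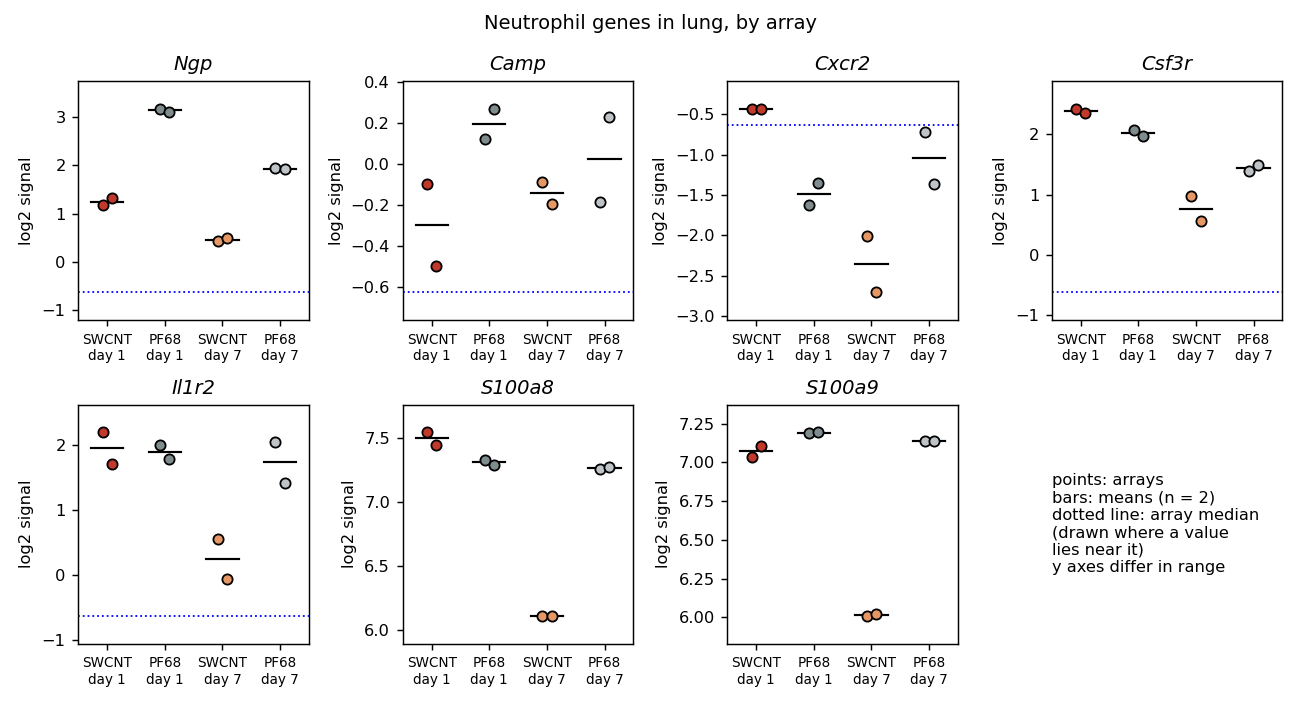
Log2 signal of the 7 measured neutrophil genes on each array, by group; points are arrays, bars are means (n = 2), the dotted line is the array median and each panel has its own range. Both SWCNT arrays of Ngp lie below both PF68 arrays on each day, and S100a8 and S100a9 are low in the SWCNT day 7 group, at 6.11 and 6.01.

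Ngp fell on day 1. It was at 1.17 and 1.33 on the SWCNT arrays, against 3.17 and 3.10 on the PF68 arrays, with no overlap. The difference was -1.88 ± 0.11 (3.69-fold lower; limma, adjusted p = 0.00259), and the call held in each of the 8 fits that left out 1 array (adjusted p 0.011 to 0.0416). Of the 7 genes, Ngp was the 1 called lower and none was called higher, where 1.23% of all genes were called lower, 0.931% higher and 2.17% in either direction. Camp, the other precursor granule gene, was at -0.10 and -0.50 in SWCNT, against 0.12 and 0.27 in PF68. Its arrays did not overlap either, but the difference of -0.49 ± 0.20 was not called (limma, adjusted p = 0.272). Camp lay within 1 log2 unit of the array median on every array, where signals are dim.

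None of the 3 measured genes of mature neutrophils was called on day 1, and all had differences above 0. Cxcr2 was at -0.44 and -0.43 in SWCNT, against -1.63 and -1.36 in PF68, a difference of 1.06 ± 0.31 (limma, adjusted p = 0.156, not called). Only the SWCNT arrays reached the array median, so this gene was tested because it was high there, and with values below the median set to it the difference was 0.19. Csf3r was at 2.43 and 2.36 in SWCNT, against 2.08 and 1.97 in PF68 (0.37 ± 0.16, adjusted p = 0.307). Its groups were narrowly apart. Il1r2 was at 2.20 and 1.72 in SWCNT, against 2.01 and 1.79 in PF68, so its SWCNT arrays lay on both sides of the PF68 arrays (0.06 ± 0.32, adjusted p = 0.945).

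The calprotectin genes were high in both day 1 groups. S100a8 was at 7.54 and 7.45 in SWCNT, against 7.33 and 7.29 in PF68 (0.18 ± 0.10, adjusted p = 0.4; -0.03 with spike scaling). S100a9 was at 7.03 and 7.11 in SWCNT, against 7.19 and 7.19 in PF68 (-0.12 ± 0.10, adjusted p = 0.581). The pair thus differed in opposite directions by small amounts, neither called. The S100a8 probe set is of a type that can also bind related transcripts. Over the 7 genes the median difference on day 1 was 0.06, and over all genes -0.02. The arrays of the groups did not overlap for 3 genes that were higher (S100a8, Csf3r, Cxcr2) and 3 that were lower (Ngp, Camp, S100a9), where 24.6% of all genes had such arrays higher and 28.6% lower.

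**Figure D2:**
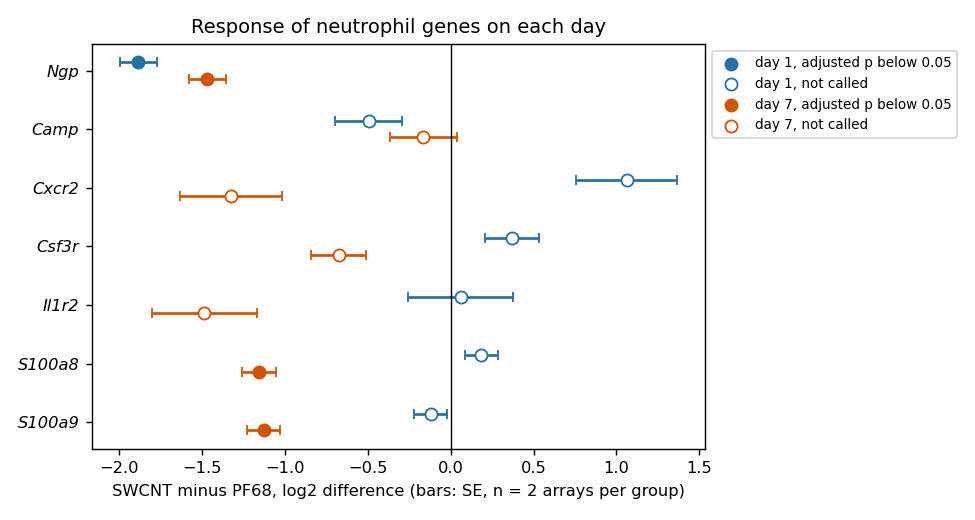
SWCNT minus PF68 log2 difference of each gene on day 1 (blue) and day 7 (orange), with standard errors (n = 2 arrays per group); filled points passed an adjusted p of 0.05. Ngp is filled on both days, S100a8 and S100a9 on day 7, and the day 7 points lie below 0, that of Cxcr2 between arrays all under the array median.

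On day 7 the 6 genes with a signal at or above the array median on every array all had differences below 0, with a median of -1.14 against 0.02 over all genes. Cxcr2 was below that median on all 4 day 7 arrays and has no measured direction there. Ngp, S100a8 and S100a9 fell, 3 of 7, where 0.78% of all genes were called lower, 1.4% higher and 2.18% in either direction. S100a8 was at 6.11 and 6.11 in SWCNT, against 7.26 and 7.28 in PF68 (-1.16 ± 0.10, 2.23-fold lower; limma, adjusted p = 0.018). S100a9 was at 6.01 and 6.02 in SWCNT, against 7.14 and 7.14 in PF68 (-1.13 ± 0.10, 2.19-fold lower; adjusted p = 0.018). Both genes lay far apart between the groups, with almost no spread inside them. Ngp was at 0.42 and 0.49 in SWCNT, against 1.93 and 1.92 in PF68 (-1.47 ± 0.11, 2.77-fold lower; adjusted p = 0.014).

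These 3 day 7 calls need all 8 arrays. Without any 1 of the 8, whichever it was, none of the 3 passed (adjusted p 0.0618 to 0.135 for S100a8 and for S100a9, 0.0511 to 0.12 for Ngp), while the difference of S100a8 stayed between -1.165 and -1.148, that of S100a9 between -1.133 and -1.123 and that of Ngp between -1.503 and -1.433. Scaled to the hybridization spikes, the differences were -0.63 for S100a8, -0.60 for S100a9 and -0.94 for Ngp, and all 3 were still called. With no filter on dim signals, Ngp alone was called (adjusted p = 0.0384, against 0.0504 for S100a8 and for S100a9).

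None of the mature neutrophil genes passed on day 7. Il1r2 was at 0.56 and -0.05 in SWCNT, against 2.06 and 1.42 in PF68 (-1.49 ± 0.32; limma, adjusted p = 0.0712). Cxcr2 was at -2.01 and -2.71 in SWCNT, against -0.71 and -1.36 in PF68 (-1.32 ± 0.31, adjusted p = 0.0825), and with values below the array median set to it the difference was 0. Csf3r was at 0.98 and 0.55 in SWCNT, against 1.38 and 1.495 in PF68 (-0.67 ± 0.17, adjusted p = 0.0921). The groups were apart for Il1r2 and Csf3r, and their SWCNT arrays were spread more widely than those of S100a8. Scaled to the spikes, Csf3r differed by -0.15. Camp again overlapped, at -0.09 and -0.20 in SWCNT, against -0.18 and 0.23 in PF68 (-0.16 ± 0.20, adjusted p = 0.672), and with spike scaling its difference was 0.36. Without Cxcr2, non-overlapping arrays, all lower in SWCNT, were found for 5 of the 6 genes on day 7 and for 25% of all genes, where 28.2% of all genes had such arrays higher.

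The SWCNT effect differed between the days for the calprotectin genes. The day 7 effect minus the day 1 effect was -1.34 ± 0.14 for S100a8 (limma, adjusted p = 0.0225) and -1.01 ± 0.14 for S100a9 (adjusted p = 0.0369), 2 of 7 called lower, where 0.924% of all genes were called lower, 1.41% higher and 2.34% in either direction. Scaled to the spikes, these were -0.60 and -0.26, and the second was no longer called (adjusted p = 0.191). Neither passed without any 1 of the 8 arrays (adjusted p 0.0588 to 0.148). For Cxcr2 the difference between the days was -2.38 ± 0.43 (adjusted p = 0.0548), for Il1r2 -1.55 ± 0.45 (0.136) and for Csf3r -1.04 ± 0.23 (0.0821), none called, and for Cxcr2 it was -0.19 with values below the array median set to it. Both precursor granule genes had the opposite sign: 0.42 ± 0.16 for Ngp (adjusted p = 0.213) and 0.33 ± 0.29 for Camp (0.561), neither called. With spike scaling, where the median of all genes is 0.80, Ngp stood at 1.16 and was called (adjusted p = 0.00683), as were Camp at 1.08 (0.0408) and Cxcr2 at -1.64 (0.0252).

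Between the days within SWCNT lungs, 5 of the 6 genes with a signal at or above the array median on every array fell, where 6.7% of all genes were called lower, 9.59% higher and 16.3% in either direction. The same 5 had arrays that did not overlap, all lower on day 7, as had 26.2% of all genes, while 36.6% had such arrays higher. This comparison shares arrays with those above and is not separate evidence. Il1r2 differed most among the 5 (-1.71 ± 0.32; limma, adjusted p = 0.0222), followed by Csf3r (-1.63 ± 0.16, 0.007). S100a8 fell by 1.38 (± 0.10, adjusted p = 0.00476), S100a9 by 1.06 (± 0.10, 0.00633) and Ngp by 0.79 (± 0.11, 0.0115). Camp differed by 0.16 ± 0.20 (0.637). Cxcr2, which was tested only because it was high in SWCNT day 1 and lay under the array median on both SWCNT day 7 arrays, had a fitted difference of -1.93 ± 0.31 (adjusted p = 0.0148), but with values below that median set to it the difference was -0.19 and was not called (adjusted p = 0.182). With Cxcr2 counted, leaving out 1 array left 2 to 6 calls. S100a8 and Csf3r were called in all 8 such fits. S100a9 lost its call without SWCNT day 7 replicate 2 (adjusted p = 0.0552), and Ngp lost its call without SWCNT day 1 replicate 2, SWCNT day 7 replicate 1 or SWCNT day 7 replicate 2 (0.0599 to 0.0723). Cxcr2 lost its call without either SWCNT day 1 array or without SWCNT day 7 replicate 2 (0.0687 to 0.0736), and Il1r2 without any 1 of the 4 SWCNT arrays (0.06 to 0.0999).

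Within PF68 lungs, Ngp was lower on day 7 than on day 1 by 2.31-fold (-1.21 ± 0.11; limma, adjusted p = 0.00753), 1 of 7 genes where 8.86% of all were called lower, 8.86% higher and 17.7% in either direction. Arrays did not overlap for 4 of the 7 genes, all lower on day 7, as for 28.6% of all genes, while 32.5% had such arrays higher. The call of Ngp was lost without either PF68 day 1 array (adjusted p 0.061 and 0.0681). Csf3r differed by -0.59 ± 0.16 (0.0625), and S100a8 and S100a9 by -0.04 and -0.05. With spike scaling, where the median of all genes is -0.56, the last 3 were called at -1.18, -0.64 and -0.65, as was Camp at -0.77. The beta-actin gap was wider on day 7 than on day 1 by 1.63 in SWCNT and by 1.25 in PF68, so day and RNA quality cannot be told apart in these comparisons. The order of Ngp levels over the 4 groups was SWCNT day 7 (0.46), SWCNT day 1 (1.25), PF68 day 7 (1.93) and PF68 day 1 (3.13), with no neighbouring groups overlapping. For S100a9 the SWCNT day 7 group stood at 6.01 ± 0.007 (SD, n = 2) and the other 3 between 7.07 and 7.19.

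**Figure D3:**
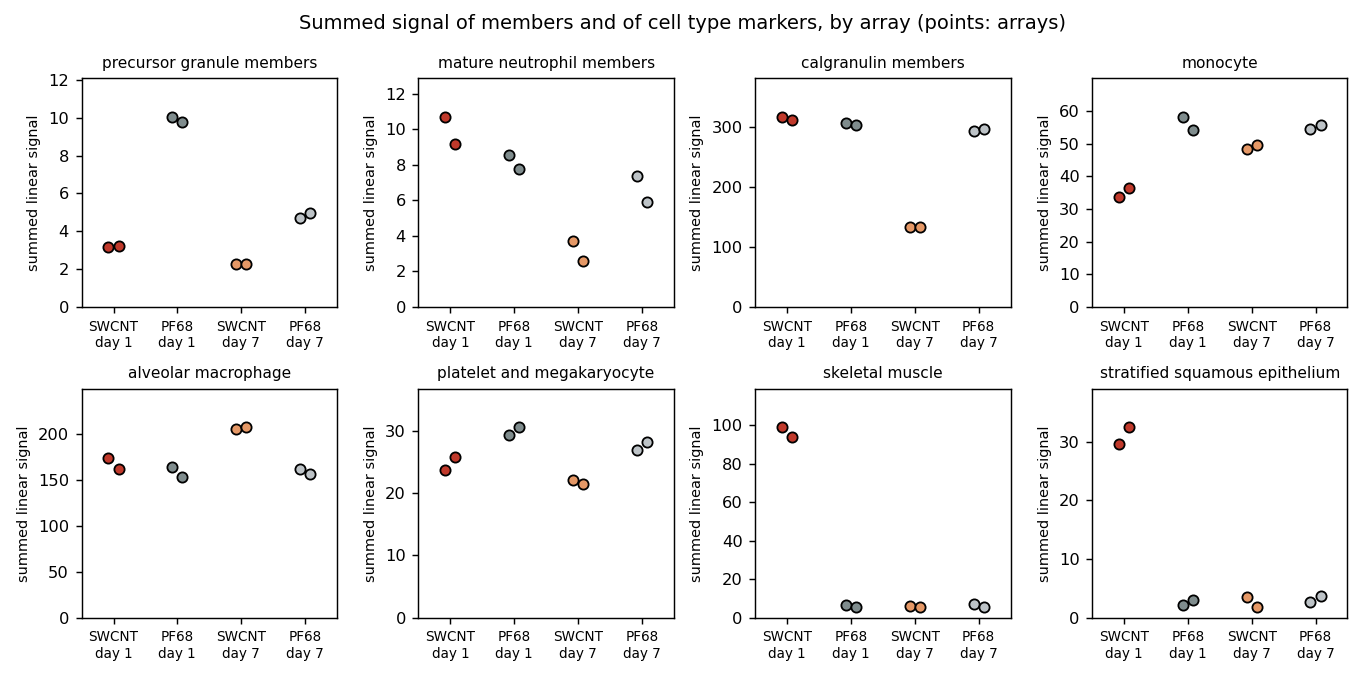
Summed linear signal (the sum of 2 to the power of each log2 signal) of the neutrophil genes by class and of marker lists of other cells, on each array; points are arrays and each axis starts at 0. The precursor granule sum is lower in SWCNT on both days (3.18 to 3.22 against 9.77 to 10.1 on day 1). It holds Ngp and the dimmer Camp, which was not called on either day. The calprotectin sum is lower in SWCNT day 7 only, and muscle and squamous sums stand out in SWCNT day 1.

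The summed signals of monocyte, platelet and erythroid markers were lower in SWCNT than in PF68 on each day, as Ngp was. Most of the single markers were not called. Over the 4 groups the platelet sum followed the order of Ngp levels. The monocyte sum did not, being lowest in SWCNT day 1, nor did the erythroid sum, which was lower in PF68 day 7 than in SWCNT day 1. On day 1, 2 of 5 monocyte, 2 of 6 platelet and 1 of 3 tested erythroid genes were called lower, and on day 7 1, 1 and 0, with none called higher. Over all genes, 1.23% were called lower on day 1 and 0.78% on day 7. On day 1 Pf4 (0.23) and F13a1 (0.19) had higher, uncalled values in SWCNT, and on day 7 Treml1 (0.245) had. Monocyte markers (5 of 6 measured) summed to 33.8 to 36.5 in SWCNT day 1, against 54.2 to 58.3 in PF68 day 1, and to 48.2 to 49.4 in SWCNT day 7, against 54.4 to 55.6 in PF68 day 7. Platelet markers (6 of 6 measured) summed to 23.7 to 25.7 in SWCNT day 1, against 29.4 to 30.6 in PF68 day 1, and to 21.4 to 22.2 in SWCNT day 7, against 27.0 to 28.3 in PF68 day 7. Both sums were lower in SWCNT on each day without overlap, and so was the erythroid sum (4 of 6 measured). Of all single genes, 28.6% were lower in SWCNT without overlap on day 1 and 25% on day 7. The erythroid sums were 32.2 to 33.4 in SWCNT, against 38.6 to 39.3 in PF68, on day 1, and 24.8 to 26.4 in SWCNT, against 27.4 to 29.7 in PF68, on day 7. Each sum mainly follows its brightest genes and does not measure a cell type. Alas2, the brightest erythroid gene, differed by -0.10 on day 1 and -0.11 on day 7, neither called. Of the brightest monocyte genes, Plac8 differed by -1.34 on day 1 (called) and Csf1r by -0.18 (not called). The sum of alveolar macrophage markers (8 of 9) went the other way on day 7, at 205.1 to 207.4 in SWCNT against 156.0 to 162.3 in PF68, and overlapped on day 1. On day 7, 2 of these 8 genes were called higher, Atp6v0d2 (1.11) and Olr1 (1.34), and none lower, beside 1.4% of all genes called higher. Chil3, the brightest and also in the granule gene list below, differed by 0.30 and Cidec by -0.39, neither called.

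Lists of less related cells carried little signal. Of the eosinophil markers, Epx and Ccr3 were below the array median on all 8 arrays, as were Cpa3 and Mcpt8 of the mast cell and basophil list and Vpreb1 of the B cell progenitors of bone marrow. The B cell progenitor sum (6 of 6 measured) was 2.38 to 3.89 in SWCNT, against 3.71 to 4.36 in PF68, on day 1, and 5.05 to 10.6 in SWCNT, against 6.16 to 7.74 in PF68, on day 7. The groups of this sum overlapped on both days. Of its 2 tested genes, Vpreb3 was lower in SWCNT without overlap on both days (-1.18 ± 0.43 and -1.15 ± 0.43, neither called). The other, Igll1, overlapped on both days (-0.145 and 1.36). The eosinophil sum (4 of 5 measured) was 1.34 to 1.36 in SWCNT, against 1.39 to 1.64 in PF68, on day 1, and 0.893 to 1.05 in SWCNT, against 1.00 to 1.14 in PF68, on day 7. The mast cell and basophil sum (5 of 5 measured) was 1.55 to 1.89 in SWCNT, against 2.07 to 2.11 in PF68, on day 1, and 1.73 to 2.01 in SWCNT, against 2.14 to 3.20 in PF68, on day 7. Muscle markers (10 of 10 measured), high in SWCNT day 1, summed to 5.66 to 6.19 in SWCNT day 7, against 5.59 to 6.89 in PF68 day 7. Squamous markers (6 of 7 measured) summed to 1.85 to 3.61 in SWCNT day 7, against 2.71 to 3.70 in PF68 day 7, so both lists overlapped on day 7. The part of any of these cells, or of RNA quality, in the results above was not tested.

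Among other genes of the neutrophil programme, the directions were mixed. Of 12 other secondary and tertiary granule genes, 1 was called higher in SWCNT on day 1, 0 lower and 11 were not called (median 0.19), beside 0.931% of all genes called higher and 1.23% lower. That gene was Ltf, the iron-binding lactoferrin of specific granules and of secretions (1.06 ± 0.15; limma, adjusted p = 0.0392). On day 7, 3 were called higher and 2 lower, with 7 not called (median 0.19), beside 1.4% of all genes called higher and 0.78% lower. The same shares of all genes stand beside the counts of the lists that follow. Mmp8, neutrophil collagenase, was at -0.04 and 0.32 in SWCNT, against 2.10 and 2.18 in PF68 (-2.00 ± 0.16, adjusted p = 0.0152), and Mmp9, gelatinase B, differed by -0.91 ± 0.12 (0.0353; with spike scaling -0.38 and not called, 0.0574). Higher were Lcn2, lipocalin-2, which epithelium also makes (1.81 ± 0.14, adjusted p = 0.014), Ltf (1.32 ± 0.15, 0.0301) and Cd177, a neutrophil surface protein (0.87 ± 0.14, 0.0496). Cd177 was dim, at 0.02 and -0.31 in SWCNT day 7, and below the array median on both PF68 day 7 arrays (-1.09 and -0.94). Slc11a1, a metal transporter, differed by 0.12 ± 0.24 with overlapping arrays on day 7. On day 1 it was higher in SWCNT without overlap, but not called (0.91 ± 0.24, adjusted p = 0.138).

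None of the 5 tested primary granule genes, which promyelocytes transcribe, was called on either day (medians -0.35 and 0.07). On day 1, 2 had differences above 0 and 3 below, and on day 7, 3 above and 2 below. Elane (0.48 ± 0.50) was higher in SWCNT without overlap on day 1, as were Prtn3 (0.77 ± 0.28) and Ms4a3 (0.87 ± 0.48) on day 7. In each of these comparisons at least 1 PF68 array lay below the array median, and for Prtn3 both did (-0.93 and -1.21). Prtn3 was lower in SWCNT without overlap on day 1 (-0.36 ± 0.28), and Mpo was lower on both days. Mpo, myeloperoxidase, was at -1.93 and -1.53 in SWCNT day 1, against -1.19 and -0.27 in PF68 day 1 (-1.003 ± 0.49, adjusted p = 0.349), and the day 7 difference was -1.29 ± 0.49 (0.196). The groups did not overlap on either day, but 6 of the 8 Mpo values, all 4 in SWCNT among them, lay below the array median. Leaving out 1 array moved the difference between -1.46 and -0.54 on day 1 and between -1.92 and -0.66 on day 7. Of 19 tested genes of other mature neutrophil markers, 1 was higher and 2 lower on day 1, with 16 not called (median 0.02). Lrg1 rose (0.72 ± 0.10, adjusted p = 0.0376; with spike scaling 0.50 and not called, 0.062), and Ifitm6 (-1.51 ± 0.19, 0.0245) and Hdc, the histamine-forming decarboxylase (-1.27 ± 0.21, 0.0495), fell. On day 7, 2 were higher and 1 lower, with 16 not called (median -0.02): Lrg1 (1.78 ± 0.10, 0.00899) and Wfdc21 (0.92 ± 0.13, 0.0404) rose, and Stfa2l1, a stefin-type protease inhibitor gene, fell (-1.25 ± 0.12, 0.0217). Stfa2l1 has near-identical relatives, so which of them its probe set measured is uncertain.

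**Figure D4:**
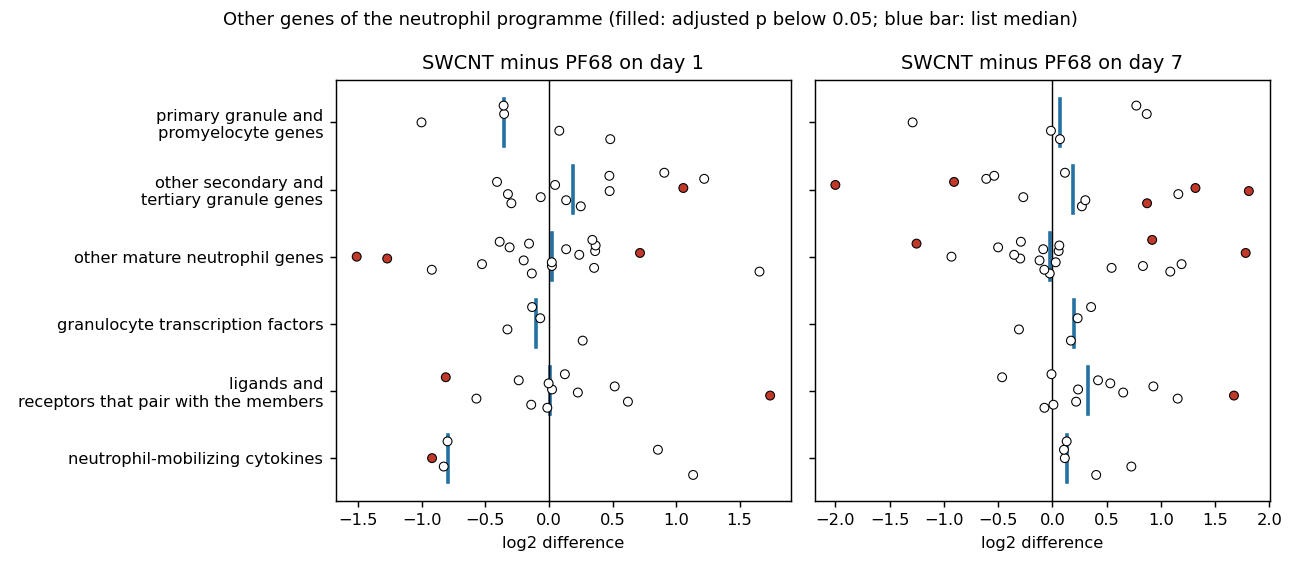
SWCNT minus PF68 log2 difference of each tested gene in 6 lists of the neutrophil programme on day 1 (left) and day 7 (right); filled points passed an adjusted p of 0.05 and blue bars are list medians. Granule genes are called in both directions on day 7, from Mmp8 at -2.00 to Lcn2 at 1.81.

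The partners of the receptors gave few calls. Of 12 tested ligands and receptors that pair with S100A8/A9, CXCR2, CSF3R and IL1R2, 1 was higher and 1 lower on day 1, with 10 not called (median 0.01). On day 7, 1 was higher and 11 were not called (median 0.33). Cxcl5, a CXCR2 ligand of lung epithelium, was at 0.66 and 0.49 in SWCNT day 1, against -0.77 and -1.56 in PF68 day 1 (1.74 ± 0.27; limma, adjusted p = 0.0421), and at -0.61 and -0.70 in SWCNT day 7, against -2.44 and -2.21 in PF68 day 7 (1.67 ± 0.27, 0.0457). Its arrays did not overlap on either day, but Cxcl5 reached the array median only on SWCNT arrays, through which it was tested. On day 7 SWCNT replicate 2 was below the median too, so that difference is between signals near or under it. Ppbp, a CXCR2 ligand precursor stored in platelets, fell on day 1 (-0.81 ± 0.12, adjusted p = 0.0407). Cxcl2, a CXCR2 ligand of macrophages, differed by -0.57 ± 0.43 on day 1 and 1.15 ± 0.43 on day 7, neither called (0.547 and 0.188), and with spike scaling its day 7 difference of 1.68 was called (0.0296). Leaving out 1 array moved the day 7 difference of Cxcl2 between 0.63 and 1.68.

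Of 5 tested neutrophil-mobilizing cytokines, 1 was lower on day 1, Il6 (-0.92 ± 0.15; limma, adjusted p = 0.0499), and none was called on day 7 (medians -0.80 and 0.13). Il6 was dim, at -0.51 and -0.85 in SWCNT day 1, near or under the array median, against 0.23 and 0.26 in PF68 day 1. None of 4 granulocyte transcription factors was called on either day (medians -0.10 and 0.20). Of the 16 list genes called on a day, counted once per day, Lrg1 on day 7 kept its call in 3 of 8 fits without 1 array, Ifitm6 in 2 and Cxcl5 on day 1 in 1. The other 13 lost it in all 8.

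The genes whose pattern over the 8 arrays was most like the centred mean of Ngp and Camp, among 6934 genes with a range of at least 1 log2 unit, were Ppbp (Pearson r = 0.973), Wif1 (0.963), Dbp (0.952), Nfe2 (0.947) and Slfn4 (0.944). Slfn4 averaged 0.54 in SWCNT and 2.11 in PF68 on day 1, and -0.28 in SWCNT and 0.52 in PF68 on day 7. Ngp and Camp were not scaled before averaging. Group means ran from 0.46 to 3.13 for Ngp and from -0.30 to 0.20 for Camp, so their mean mainly follows Ngp. Nfe2 is a transcription factor of megakaryocytes and red cell precursors. For the mean of Cxcr2, Csf3r and Il1r2 the most similar genes were Zfp617 (r = 0.961), Dhrs2 (0.954), an immunoglobulin kappa variable gene (0.953), Tmem82 (0.95) and Pdlim3 (0.939). Cxcr2 reached the array median on only 2 of the 8 arrays, so this mean rests partly on dim signals. In SWCNT day 7, Dhrs2 (-1.43), the immunoglobulin gene (-1.36) and Tmem82 (-2.00) averaged below that median, and Zfp617 (0.68) and Pdlim3 (-0.13) above it. The 8 arrays of each gene share their hybridizations and groups, and these correlations only describe which patterns looked alike.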

How the data were processed

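Single-colour Affymetrix arrays were analysed from the table the authors deposited, with 1 log2 signal per probe set and array; per the submitters' processing notes the tool was RMA, with no version or settings. Neither log base nor offset is given in the sources used. Once sorted, the 8 columns were identical, as quantile normalization leaves them. The table held 45101 probe sets, of which 64 control probe sets and 8 with a missing value were left out. Names came from the platform's annotation: 34939 of the rest had 1 symbol, 931 several and 9159 none.

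Probe sets reaching the array median on 2 or more arrays were kept, and the brightest on average stood for each gene, giving 13854 genes. The 4 group means were estimated from the 8 arrays together (limma 3.58.1, R 4.3.3, functions lmFit and eBayes, with 4 degrees of freedom from the arrays and 1.81 from the prior), and P-values were adjusted by Benjamini-Hochberg within each of 5 contrasts. The procedure was tested on simulated data. The number of arrays limits the precision. Alternatives covered the filter, normalization, choice of probe set, variance model, array weights, replicate blocks, arrays in the fit, a floor, the threshold and leaving out arrays. The members and gene lists were chosen with earlier results of these data known. Genes named were all members, the neutrophil programme genes called between SWCNT and PF68 on a day, and the 5 most correlated genes per pattern. Some uncalled list genes were named too. They were not always those with the largest differences: Olfm4, Asprv1, Fcgr4 and Itgb2l, for example, were not described. Sequences are from RefSeq (GRCm38.p6). Figures used matplotlib 3.10.9.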

Additional observations from a re-analysis of the deposited data

Results flagged for a closer look

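The SWCNT effect differed between the days, by the test of that difference, for 7 of the 64 tested genes of the neutrophil programme, members and lists together, beside 2.34% of all genes. It was lower on day 7 for Mmp8 (-2.05), S100a8 (-1.34), Stfa2l1 (-1.10), Pglyrp1 (-1.01) and S100a9 (-1.01), and higher on day 7 for Lcn2 (1.33) and Lrg1 (1.06), all as log2 differences of 2 differences (limma, adjusted p 0.0225 to 0.0448). None of the 7 passed in any fit without 1 array. Pglyrp1, a peptidoglycan-recognition protein of neutrophil granules, was not called on either day alone. With spike scaling, S100a9, Pglyrp1 and Stfa2l1 lost their calls.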

How the results depend on the processing

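On day 1 Ngp was called under every alternative run and without any 1 array, and S100a8 joined it with a trended, robust variance (2 called). The 3 calls on day 7 became 1 with no filter on low values, 4 with values below the array median set to it (Il1r2 added, adjusted p = 0.0468), 5 with a filter at the median on all 8 arrays or with the trended, robust variance, 6 at an adjusted p threshold of 0.1, and 0 with a replicate block, with only the 4 arrays compared, or without any 1 array (0 to 0). The 2 calls of the difference between days became 0 with no filter, with the probe set of largest interquartile range, with the replicate block or without any 1 array (0 to 0), 1 with averaged probe sets or adjustment over every probe set, 3 with the stricter filter (Csf3r added, 0.0305), and 4 with spike scaling, the trended variance or the threshold of 0.1; over all genes, the alternatives called 30 to 1254 genes on day 1, 0 to 5893 on day 7 and 3 to 6127 for the difference between days, against 300, 302 and 324, and the block fit called 102, 15 and 30. The 1 call between days in PF68 became 2 with the stricter filter, the trended variance, a floor at the array median or the threshold of 0.1, 5 with spike scaling, and 0 with only 4 arrays; without 1 array it was 0 to 2. The 6 calls between days in SWCNT (Cxcr2 included) became 5 with the stricter filter or the floor, 0 with only 4 arrays and 2 to 6 without 1 array. At the threshold of 0.1, the calls on day 7 and those of the difference between days included Cxcr2, though its day 7 values all lay below the array median. With spike scaling, the 4 calls of the difference between days were S100a8 and Cxcr2, both lower, and Ngp and Camp, both higher. S100a9 was no longer among them. Counting members without Cxcr2 was chosen after seeing the data. Over all genes the alternatives called 0 to 5928 between days in PF68 and 7 to 3631 in SWCNT, against 2455 and 2257. Differences that changed sign were all uncalled: with spike scaling S100a8 (-0.033) and Il1r2 (-0.16) on day 1, Camp on day 7 (0.36) and Cxcr2 between days in PF68 (-0.14), and without 1 array Il1r2 (-0.18 to 0.30) on day 1, Camp on day 7 (-0.371 to 0.0429), Il1r2 (-0.48 to 0.16) and Camp (-0.380 to 0.0338) between days in PF68 and Camp in SWCNT (-0.0437 to 0.359). Fewer genes or arrays in the fit changed adjusted p-values by construction; the cause of the others was not tested. Same-numbered arrays did not deviate together over all tested genes (r -0.006 to 0.011). The labels do not say whether a number is a shared animal, litter or day, and these correlations cannot tell.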
